A study of Macaca mulatta with 22 samples.

Results

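Splicing factors and RNA helicases were followed through the ovulatory follicle of the rhesus macaque (Macaca mulatta). The members are the genes of the array whose platform symbol falls in the families SRSF, SF3A/SF3B, HNRNP, SNRP, PRPF, DDX, DHX, U2AF, RBM and LSM. There are 127 of them among 14132 genes named by a single symbol, and 269 of 24956 singly named probe sets. A member is given by the probe set with the highest mean log2 intensity over all 22 arrays. The families counted 8 SR proteins, 16 hnRNPs, 8 Sm and snRNP proteins, 9 SF3 and U2AF proteins, 10 PRPF factors, 9 LSM proteins, 28 RBM proteins, 24 DDX helicases and 15 DHX helicases.

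Splicing removes introns from new transcripts. Small nuclear ribonucleoproteins (snRNPs), each an RNA in a ring of Sm or LSM proteins, recognise the splice sites with the help of U2AF and SF3 proteins. SR proteins mostly promote and hnRNPs often repress the use of a site, and DEAD-box (DDX) and DEAH-box (DHX) helicases remodel the RNA. Related helicases work outside splicing, in ribosome assembly, mRNA export, translation and the sensing of viral RNA. In the follicle, the luteinizing hormone surge sets off a fast change of transcription in granulosa and theca cells that ends in rupture and luteinization, and much of that change concerns newly made transcripts that must be spliced and exported.

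Each array held RNA of 1 dominant follicle. Females in a natural cycle were given the gonadotropin-releasing hormone antagonist Acyline together with 30 IU each of FSH and LH (recombinant, human), once serum estradiol had reached 100 to 120 pg/ml, and all 5 groups share this treatment. The 6 follicles of 0 h were removed without hCG. The others had received 1000 IU of recombinant hCG, which acts on the luteinizing hormone receptor: 4 were taken at 12 h, 4 at 24 h, 4 at 36 h before rupture and 4 at 36 h after it. Titles call every sample a follicle, whereas most descriptions speak of a corpus luteum in formation. Replicate numbers are those of the titles, so unruptured follicles are 1 to 4 and ruptured ones 5 to 8. Separate animals are not stated for each array, and p-values therefore measure the spread between these follicles.

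Array medians lay between 26.2 and 26.7 intensity units, and the number of arrays limits the precision. Levels below are log2 intensities, on which 1 is a 2-fold change, with SD. Changes are differences of group means with their standard error (SE) and limma's p-value adjusted over 52766 probe sets, and a change was called at an adjusted p under 0.05. Follicle markers were high at 0 h, with CYP19A1 (aromatase, of granulosa cells) at 11.34 ± 0.85 (SD, n = 6) and CYP17A1 (of theca cells) at 12.05 ± 0.40. By 24 h they were at 6.96 ± 1.04 and 7.82 ± 0.57 (n = 4 each). Of 8 measured granulosa markers, 4 were called lower at 24 h than at 0 h and 0 higher. Of 5 measured theca markers, CYP17A1 was called lower, STAR higher and 3 were not called. The follicle is whole tissue, so fewer cells of a type and less RNA per cell cannot be told apart in any result below.

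The members changed often but by small amounts. Of the 127, 59 (46.5%) had group means that differed by the moderated F test of limma, against 29.0% of all genes taken by their brightest probe set and 20.1% of all probe sets. The median SE of a member's change between 0 h and 12 h was 0.12, against 0.22 for all genes, so smaller changes pass the test among members. A total of 122 members lay above the overall median log2 of 4.73. The range of the 5 group means had a median of 0.47 over the members and reached 1.45. The F test called 5 of 8 SR proteins, 9 of 16 hnRNPs, 5 of 8 Sm and snRNP proteins, 4 of 9 SF3 and U2AF proteins and 4 of 10 PRPF factors. It also called 3 of 9 LSM proteins, 13 of 28 RBM proteins, 7 of 24 DDX helicases and 9 of 15 DHX helicases.

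**Figure D1:**
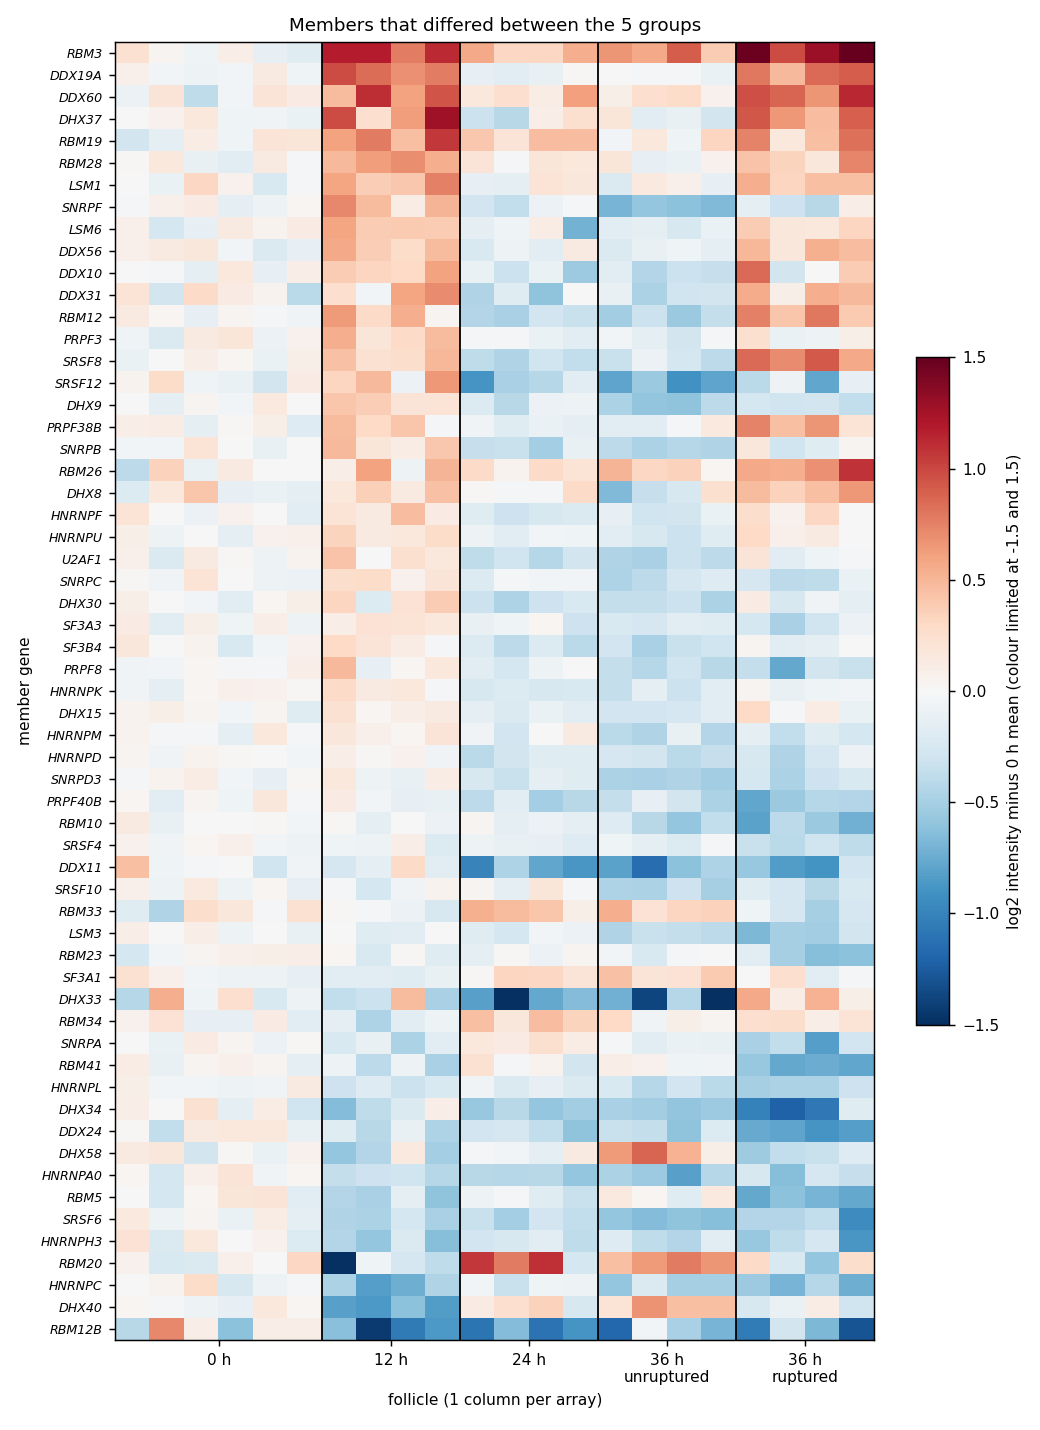
Log2 intensity minus the 0 h mean in each of the 22 follicles (columns, by group) for the 59 members called in the F test (rows, ordered by the change from 0 h to 12 h). Rows at the top are red at 12 h and again in ruptured follicles, with RBM3 and DDX19A first, and DHX40 near the bottom is blue at 12 h and red in unruptured follicles.

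These 59 members most often had their highest mean at 12 h and their lowest in unruptured follicles. The 12 h group was highest for 26 of them (44.1%), while it was highest for 18.9% of the 4095 genes called in the same test. Unruptured 36 h follicles were lowest for 23 (39.0%), against 16.8% of called genes. The 0 h group was highest for 14 members (23.7%, against 24.4% of called genes) and lowest for 5 (8.47%, against 22.3%). Ruptured follicles were highest for 9 (15.3%, against 23.3%) and lowest for 16 (27.1%, against 27.9%).

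**Figure D2:**
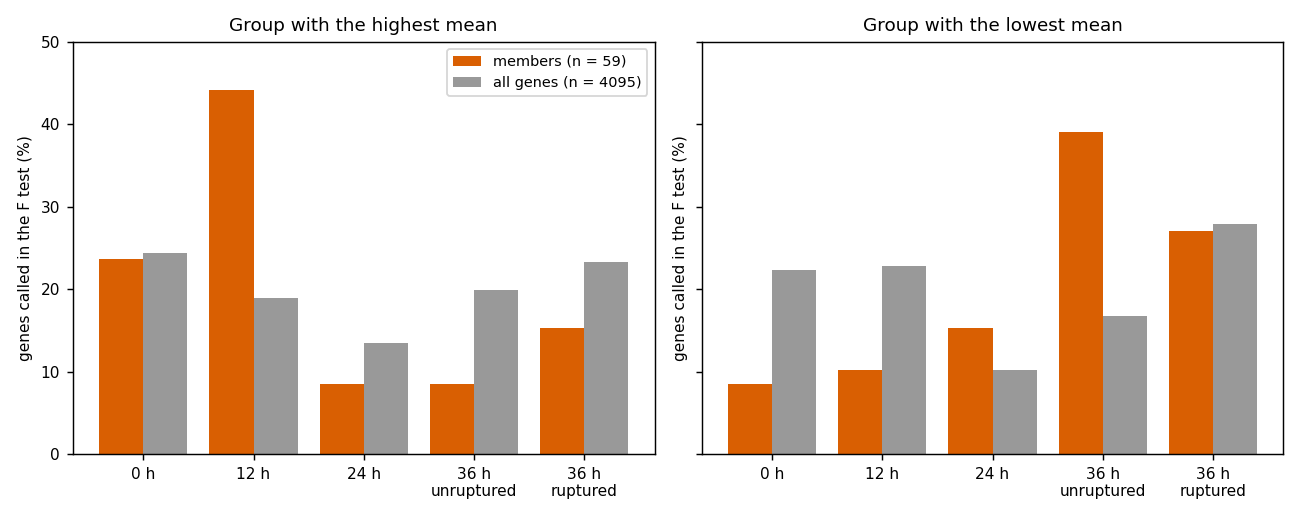
Share of genes called in the F test (vertical axis, %) whose highest (left) or lowest (right) group mean lies in each of the 5 groups, for 59 members and 4095 genes. The member bars stand above the gene bars at 12 h on the left (44.1% and 18.9%) and at 36 h unruptured on the right (39.0% and 16.8%).

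From 0 h to 12 h, 20 members were called (15.7%), close to the 14.3% of all genes called in that comparison. Of these, 12 rose and 8 fell, where 6.50% of genes rose and 7.80% fell. The members' median change was 0.04, beside 0.00 for all genes. Only RBM3 and RBM11 were called with at least a 2-fold change (4.51% of genes were). RBM11 fell by 1.21 ± 0.33 on the log2 scale (adjusted p = 0.0243) from a level of 4.47 ± 0.75 (n = 6), and its call ended on leaving out any 1 of 5 arrays (0 h replicates 3, 5 and 6 and 12 h replicates 2 and 3; adjusted p up to 0.0988). The count of 20 depended on single arrays: it was 11 without 12 h replicate 1, 12 without 12 h replicate 2 or 4 and 12 without 0 h replicate 5. The 9 members called without any single array were DDX19A, DDX60, DHX37, DHX40, HNRNPC, LSM1, RBM19, RBM28 and RBM3.

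Other cell markers moved at the same step. Macrophage and monocyte markers rose for 5 of 11 genes (AIF1, CD14, FCN1, LYZ and TYROBP), and their summed intensity ran from 1502 to 2884 at 0 h and from 2360 to 6229 at 12 h. Proliferation genes fell for 8 of 11, with sums of 2725 to 3780 at 0 h and 1532 to 2595 at 12 h. Of 8 granulosa markers, 2 were called lower (HSD17B1 and INHBB) and 0 higher, and CYP19A1 was not called at this step. Their summed intensity ran from 8862 to 16930 and then from 3996 to 10460, ranges that overlap. The part of these shifts in the members' changes was not tested.

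From 12 h to 24 h most called members fell. A total of 27 (21.3%) were called, against 10.9% of all genes. Of them 22 (17.3%) fell, against 5.02% of genes, and 5 rose, against 5.84%. The median change was -0.13 over the members and 0.02 over all genes, and 36 of 127 members had a positive difference. One member, RBM20, a splicing regulator known from the heart, was called with at least a 2-fold change (2.96% of genes). It rose by 1.22 ± 0.31 (adjusted p = 0.0201), and the call was lost on leaving out replicate 1 of 12 h or replicate 1, 2 or 3 of 24 h, with an adjusted p as high as 0.0728. The count was 16 without 12 h replicate 1, 17 without 24 h replicate 1 and 15 without 24 h replicate 2. The 12 members called without any single array were DDX19A, DHX37, DHX40, DHX9, LSM6, RBM12, RBM34, SNRPB, SNRPF, SRSF12, SRSF8 and U2AF1.

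The 3' minus 5' difference of the control transcripts, a measure of RNA integrity, had means of 0.347 at 12 h and 0.263 at 24 h, and of 0.323 before and 0.268 after rupture. With it as a covariate, 9 of the 27 calls from 12 h to 24 h ended (DDX10, DDX11, DDX31, DHX30, HNRNPC, HNRNPF, HNRNPK, RBM28 and SNRPA). At rupture 8 of 26 calls ended (DDX24, HNRNPDL, HNRNPU, LSM1, LSM14A, RBM23, SNRPF and U2AF1), and at 12 h 2 of 20 (LSM6 and SNRPN).

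Between 24 h and unruptured 36 h, limma called 0 members, and 1 gene in all (0.00708%). At an unadjusted p under 0.05 there were 14 members. The median change of the members was -0.03 and that of all genes 0.01.

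Ruptured and unruptured follicles of the same 36 h differed in 26 members (20.5%), against 14.1% of all genes. Of these, 16 (12.6%) were higher after rupture, against 6.47% of genes, and 10 (7.87%) were lower, against 7.67%. The median difference was 0.03 over the members and -0.06 over all genes. DHX33, RBM12 and SRSF8 were called with at least a 2-fold difference (4.12% of genes), all higher in ruptured follicles. The count was 17 without ruptured replicate 5, 16 without ruptured replicate 7, 17 without unruptured replicate 1 or 2 and 16 without unruptured replicate 4. The 13 members called without any single array were DDX19A, DDX56, DDX60, DHX37, DHX40, DHX58, DHX8, PRPF38B, RBM12, RBM3, RBM41, RBM5 and SRSF8.

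Against 0 h, 3 members were called at 24 h (5.49% of genes), all lower (2.62% of genes were): DDX11, HNRNPA0 and SRSF8. Each of these 3 calls ended without at least 1 array, and the count was 0 without 24 h replicate 1 or 4, 1 without 24 h replicate 2 or 3 or 0 h replicate 3, and 5 without ruptured replicate 8. Unruptured follicles had 17 called members (7.18% of genes), 16 of them lower (3.82% of genes) and RBM3 alone higher (3.35% of genes), by their brightest probe sets. The count was 8 without unruptured replicate 3, 9 without unruptured replicate 4 or 0 h replicate 1 and 10 without unruptured replicate 2 or 0 h replicate 3 or 6. RBM3 was not called there without unruptured replicate 3 (adjusted p = 0.0625). Ruptured follicles had 43 (21.3% of genes), 14 higher (9.43% of genes) and 29 lower (11.8%). The 3 comparisons share the 0 h arrays, so their counts are not independent of each other.

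Among the SR proteins, SRSF8 moved most. SRSF8 is an SR protein closely related to SRSF2, which is not among the members. At 0 h it ran from 7.04 to 7.24 with a median of 7.16. It stood at 7.59, 7.38, 7.41 and 7.64 in the 12 h follicles, 6.77, 6.69, 6.85 and 6.77 at 24 h, 6.82, 7.06, 6.88 and 6.76 before rupture and 8.00, 7.86, 8.06 and 7.71 after it. Every 12 h value lay above every 0 h and 24 h value, and every ruptured follicle lay above all others. The change was 0.36 ± 0.10 from 0 h to 12 h (adjusted p = 0.0285), -0.73 ± 0.11 from 12 h to 24 h (0.000623) and 1.03 ± 0.11 between unruptured and ruptured follicles (2.08e-05). The first of these calls was lost on leaving out replicate 1 or 5 of 0 h, or replicate 1 or 4 of 12 h, with an adjusted p as high as 0.0959. A dimmer probe set of SRSF8 was not called at rupture, with 0.36 ± 0.19.

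SRSF6 and SRSF12 had other courses. SRSF6, which promotes exon inclusion, was highest at 0 h, from 11.22 to 11.50 (median 11.33). It read 10.89, 10.87, 11.08 and 10.86 at 12 h, 10.76, 10.70, 10.74 and 10.71 in unruptured and 10.91, 10.91, 10.98 and 10.40 in ruptured follicles. No follicle taken after hCG at these times reached the 0 h range. It fell by 0.42 ± 0.11 on the log2 scale by 12 h (adjusted p = 0.0223) and was 0.62 ± 0.11 below 0 h before rupture, a change of -0.62 (adjusted p = 0.00326). Without 12 h replicate 1, 2 or 4 the first call ended (up to 0.0637). SRSF12, an SR-related protein known as a splicing repressor, went from 7.07 ± 0.32 at 12 h to 6.24 ± 0.30 at 24 h (n = 4 each). That change of -0.84 ± 0.19 was called (adjusted p = 0.0108) and held on a further probe set, at -0.92 ± 0.20. SRSF5, a hormone-responsive SR protein in other tissues, was not called in the F test (adjusted p = 0.577).

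**Figure D3:**
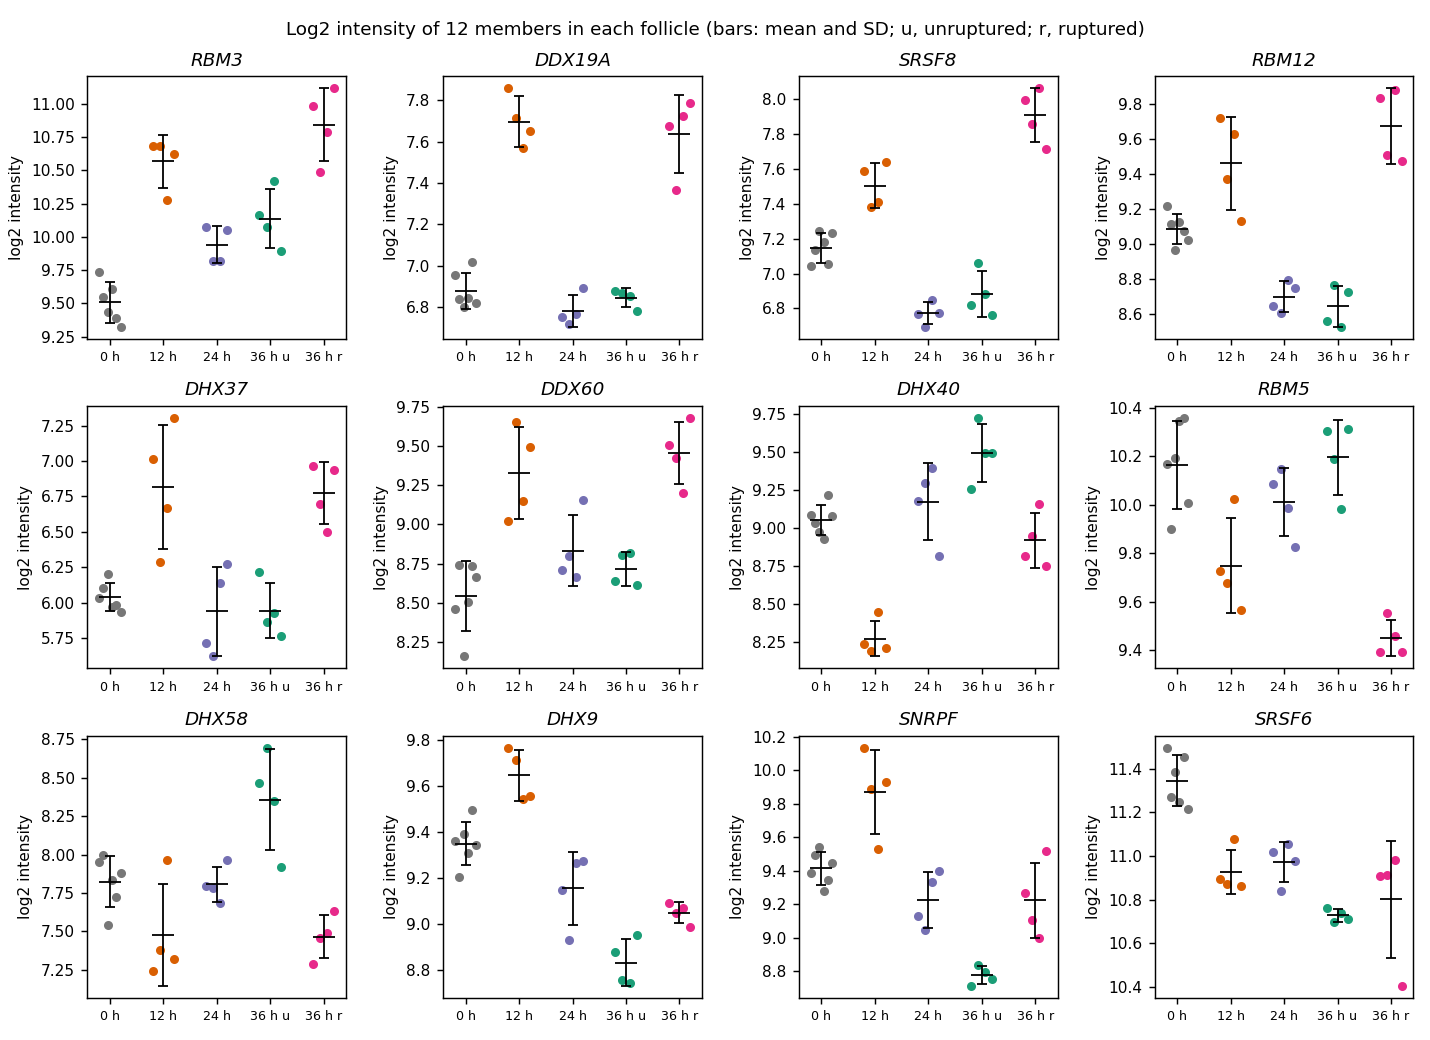
Log2 intensity (vertical axis) of 12 members in each follicle of the 5 groups (horizontal axis; u, unruptured; r, ruptured), with points for single follicles and bars for mean and SD. RBM3, DDX19A, DHX37 and DDX60 are high at 12 h and after rupture, DHX40 is low at 12 h, DHX58 is highest before rupture, and SRSF6 is highest at 0 h.

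Of the 8 Sm and snRNP proteins, SNRPF rose and SNRPN fell to 12 h, and SNRPB and SNRPF fell and SNRPA rose to 24 h. Over all genes, 14.3% were called to 12 h and 10.9% to 24 h. SNRPF, a protein of the Sm ring, ran from 9.28 to 9.54 at 0 h (median 9.42). It read 10.14, 9.88, 9.53 and 9.93 at 12 h, 9.13, 9.04, 9.33 and 9.40 at 24 h, 8.71, 8.84, 8.80 and 8.76 before rupture and 9.27, 9.11, 9.00 and 9.52 after it. The unruptured follicles lay below all others, and 12 h replicate 3 fell within the 0 h range. The fall from 12 h to 24 h was called at -0.64 ± 0.14 (adjusted p = 0.00768), and unruptured follicles lay below 0 h by the same amount, -0.64 ± 0.13 (0.00591). Its rise to 12 h (0.45 ± 0.13, 0.0272) was lost on leaving out replicate 4 or 5 of 0 h or replicate 1, 2 or 4 of 12 h (up to 0.113), and its difference at rupture (0.45 ± 0.14, 0.0452) ended on leaving out any 1 of 17 arrays (up to 0.139).

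SNRPB, which forms the Sm ring together with SNRPF, fell between 12 h and 24 h by 0.62 ± 0.13 on the log2 scale (adjusted p = 0.00544), from 9.72 ± 0.18 to 9.10 ± 0.16. Its second probe set fell by 0.71 ± 0.14. SNRPA, a protein of the U1 snRNP, went the other way: it was 8.86 ± 0.16 at 12 h, 9.26 ± 0.06 at 24 h and 8.61 ± 0.24 after rupture. Its changes of 0.40 ± 0.12 from 12 h to 24 h (0.0475) and -0.40 ± 0.12 at rupture (0.0397) ended on leaving out any 1 of 19 and any 1 of 7 arrays, while ruptured follicles lay 0.49 below 0 h without loss of the call, at -0.49 ± 0.11 (0.00364). SNRPN, the imprinted close relative of SNRPB, fell by 0.42 ± 0.13 to 12 h (0.0412), a call that ended on leaving out any 1 of 10 arrays.

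Of the proteins that recognise splice sites, U2AF1 and SF3B4 were called between successive groups. U2AF1, the subunit that binds the AG at the end of an intron, stood at 10.78, 10.35, 10.60 and 10.52 at 12 h and at 9.98, 10.06, 9.93 and 10.08 at 24 h. These groups did not overlap. The change was -0.55 ± 0.12 (adjusted p = 0.00689). It was higher after rupture by 0.40 ± 0.12 (0.0347), a call that ended without ruptured replicate 5, 7 or 8 or unruptured replicate 1, 2 or 4 (up to 0.12). U2AF2, its partner that binds the polypyrimidine tract, was not called in the F test (adjusted p = 0.0598). Of the SF3 and U2AF list, 0 of 9 were called at 12 h, U2AF1 and SF3B4 fell to 24 h, and U2AF1 alone was called at rupture. Over all genes, 14.3%, 10.9% and 14.1% were called in these steps. The call of SF3B4 ended without 12 h replicate 1 or 24 h replicate 2 (adjusted p up to 0.0671). Of the 2 probe sets of U2AF1, 1 was called in the fall to 24 h and 2 were called higher at rupture. PRPF8, at the catalytic centre of the spliceosome, was 9.92 ± 0.05 at 0 h (n = 6) and 9.48 ± 0.23 after rupture (n = 4), a change of -0.43 ± 0.12 (adjusted p = 0.0171) that was not called without ruptured replicate 6 (0.0836).

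LSM1, of the cytoplasmic LSM ring that leads messenger RNA to decapping, was 8.37 ± 0.18 at 0 h (n = 6) and stood at 8.96, 8.74, 8.77 and 9.13 at 12 h. It rose by 0.53 ± 0.12 (adjusted p = 0.0104). It then fell by 0.50 ± 0.14 to 24 h (0.031) and was higher after rupture by 0.47 ± 0.14 (0.0341). These last 2 calls were lost on leaving out replicate 1 or 4 of 12 h or replicate 1 or 2 of 24 h (as high as 0.103), and without ruptured replicate 5, 7 or 8 or unruptured replicate 1 or 4 (up to 0.108). LSM6, shared by the nuclear and the cytoplasmic ring, fell by 0.64 ± 0.15 from 12 h to 24 h (0.0121). LSM2 and LSM4 were not called in the F test.

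Of 16 hnRNPs, HNRNPC and HNRNPH3 fell to 12 h, HNRNPC rose and HNRNPF and HNRNPK fell to 24 h, and HNRNPU was higher and HNRNPDL lower after rupture. Over all genes, 14.3%, 10.9% and 14.1% were called in these 3 comparisons. The calls of HNRNPH3, HNRNPF and HNRNPK ended on leaving out any 1 of 7, 2 and 6 arrays (adjusted p up to 0.107, 0.0531 and 0.0949). For HNRNPH3 and HNRNPK, 1 of 5 probe sets was called in these falls. HNRNPC, which binds uridine tracts of new transcripts, ran from 9.90 to 10.42 at 0 h (median 10.14). It read 9.67, 9.32, 9.41 and 9.70 at 12 h, 10.11, 9.81, 10.07 and 10.06 at 24 h, and 9.60, 9.44, 9.71 and 9.42 after rupture. The 12 h and the ruptured follicles lay wholly below the 0 h range. It fell by 0.62 ± 0.12 to 12 h (adjusted p = 0.00301) and stood -0.60 ± 0.12 from 0 h after rupture (0.00187). Its rise of 0.49 ± 0.13 in between (0.0322) was lost on leaving out replicate 2 or 3 of 12 h or replicate 1, 3 or 4 of 24 h (as high as 0.0944). The probe set of HNRNPC is of a kind (suffix s) that can pick up related transcripts. The brightest probe sets of RBM3, RBM12, DHX9, HNRNPDL, HNRNPA0 and some other members are of this kind too.

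Against 0 h, 4 of 16 hnRNPs were lower before rupture (HNRNPA0, HNRNPC, HNRNPD and HNRNPL) and 5 after it (HNRNPA0, HNRNPC, HNRNPH3, HNRNPL and HNRNPUL2), and 0 were higher at either time, all by their brightest probe sets. Over all genes, 3.82% were lower and 3.35% higher before rupture, and 11.8% lower and 9.43% higher after it. HNRNPH3 had 1 of 5 probe sets called higher and 2 lower after rupture. The brightest probe set of HNRNPLL was not called, while 2 dimmer ones of its 4 were called higher at both times. After rupture the calls of HNRNPA0, HNRNPH3 and HNRNPUL2 ended on leaving out any 1 of 4, 1 and 12 arrays. Before rupture the calls of HNRNPC, HNRNPD and HNRNPL ended on leaving out any 1 of 8, 16 and 5 arrays. HNRNPU, a nuclear scaffold protein, was higher after rupture by 0.35 ± 0.10 (adjusted p = 0.0274), and the call ended without ruptured replicate 5 or 7 or unruptured replicate 2 or 3 (up to 0.0971). HNRNPDL was lower by 0.45 ± 0.14, a change of -0.45 with an adjusted p of 0.0499, and the call ended on leaving out any 1 of 18 arrays (up to 0.132). Of its 4 probe sets, 3 were called lower after rupture. HNRNPA1, the best known splicing repressor of the family, was not called in the F test (adjusted p = 0.105).

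RBM3, a cold-inducible RNA-binding protein, made the largest called change of a member from 0 h to 12 h among rises. It ran from 9.32 to 9.74 at 0 h (median 9.49) and read 10.69, 10.69, 10.28 and 10.62 at 12 h. At 24 h it read 10.07, 9.82, 9.82 and 10.05, before rupture 10.17, 10.07, 10.42 and 9.89, and after rupture 10.98, 10.49, 10.79 and 11.12. All follicles taken after hCG lay above the 0 h range, and the 12 h and ruptured groups each lay above the group before them. The change was 1.06 ± 0.14 to 12 h (adjusted p = 0.000125), -0.63 ± 0.15 to 24 h (0.0177) and 0.71 ± 0.15 at rupture (0.0063), and ruptured follicles stood 1.34 ± 0.14 above 0 h (4.24e-06). Its second probe set was called in the same 3 steps and directions. The fall to 24 h was no longer called on leaving out replicate 1 of 12 h or replicate 2 or 3 of 24 h (as high as 0.0577).

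CIRBP, the other cold-inducible RNA-binding protein of this type and outside the rule for members, moved opposite to RBM3 at each of these steps. Its level was 9.27 ± 0.27 at 0 h (n = 6), 8.39 ± 0.10 at 12 h, 9.13 ± 0.22 at 24 h, 9.06 ± 0.32 before rupture and 7.82 ± 0.26 after it (n = 4 each). The changes were -0.88 ± 0.17 (adjusted p = 0.00245), 0.74 ± 0.18 (0.0184) and -1.23 ± 0.18 (0.000326), with groups that did not overlap in any of the 3.

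RBM12, an RNA-binding protein whose gene overlaps that of the copine CPNE1 in the human genome, was among the members with the widest gap at rupture. It read 9.72, 9.38, 9.63 and 9.13 at 12 h, 8.65, 8.61, 8.80 and 8.75 at 24 h, 8.56, 8.76, 8.53 and 8.73 before rupture and 9.84, 9.51, 9.89 and 9.48 after it. The 24 h and unruptured values lay below all 12 h and ruptured values. It fell by 0.76 ± 0.13 to 24 h (adjusted p = 0.00203) and was higher by 1.03 ± 0.13 after rupture (0.000123), and its other probe set gave -0.64 ± 0.18 and 1.11 ± 0.18, both called.

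RBM5 and RBM41 were low after rupture. RBM5, a splicing regulator of apoptosis genes, read 10.30, 10.19, 9.98 and 10.31 before and 9.39, 9.55, 9.46 and 9.39 after rupture, and its ruptured values lay below those of every other group. The difference was -0.75 ± 0.13 (adjusted p = 0.00133), and -0.80 ± 0.13 on its second probe set. RBM41 read 7.92, 7.90, 7.76 and 7.77 before and 7.27, 7.07, 7.09 and 7.05 after rupture, a difference of -0.72 ± 0.13 (0.00123). RBM10, a relative of RBM5, was 8.03 ± 0.08 at 0 h (n = 6) and 7.41 ± 0.19 after rupture (n = 4), a change of -0.62 ± 0.10 (0.000351). RBM33 was lower after rupture by 0.63 ± 0.16 on the log2 scale, a difference of -0.63 (0.0147) that missed the threshold without ruptured replicate 7 or unruptured replicate 1 (up to 0.0529).

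RBM12B fell by 0.99 ± 0.26 from 0 h to 12 h (adjusted p = 0.0212), a call that ended without 12 h replicate 2 (0.0822). Its 0 h follicles were spread from 8.99 to 10.33. RBM34 rose by 0.57 ± 0.12 from 12 h to 24 h (0.00885), from 6.64 ± 0.17 to 7.20 ± 0.14. RBM39, a coactivator of nuclear receptors that also binds U2AF2, was not called in the F test (adjusted p = 0.157).

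Some helicases of ribosome assembly were called in each of these 3 comparisons. Of 13 measured, 2 rose to 12 h (DDX56 and DHX37), 4 fell to 24 h (DDX10, DDX31, DDX56 and DHX37), and at rupture 4 were higher (DDX31, DDX56, DHX33 and DHX37) and DDX24 lower. Over all genes 6.50% rose to 12 h, 5.02% fell to 24 h, and 6.47% were higher and 7.67% lower after rupture. Their own median changes, on their brightest probe sets, were 0.27, -0.41 and 0.47, beside 0.00, 0.02 and -0.06 over all genes. Of the 4 probe sets of DDX10, only the brightest was called in the fall to 24 h. Of its dimmer ones, 2 were called lower at 12 h and 3 lower after rupture, each against 0 h, where the brightest was not called. The nucleolar RNA-binding proteins RBM19 and RBM28, which also act in ribosome assembly, rose to 12 h by 0.72 ± 0.15 (adjusted p = 0.00512) and 0.59 ± 0.11 (0.00285). The calls of DDX10 and DDX31 to 24 h ended on leaving out any 1 of 4 and 6 arrays (up to 0.0908 and 0.121), and that of DDX31 at rupture on leaving out any 1 of 6 (0.0721). RBM28 fell by 0.46 ± 0.13 to 24 h and was higher by 0.41 ± 0.13 at rupture, calls that ended on leaving out any 1 of 8 and 13 arrays.

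DHX37, which releases the U3 small nucleolar RNA from the small subunit precursor, ran from 5.93 to 6.20 at 0 h (median 6.01). It read 7.01, 6.28, 6.67 and 7.30 at 12 h, 5.71, 5.63, 6.14 and 6.27 at 24 h, 6.21, 5.86, 5.93 and 5.77 before and 6.97, 6.69, 6.50 and 6.94 after rupture. The 12 h and the ruptured follicles lay above all those of the other 3 groups, 12 h replicate 2 by a small margin. The changes were 0.78 ± 0.18 (adjusted p = 0.00849), -0.88 ± 0.19 (0.00962) and 0.83 ± 0.19 (0.00992). DDX56, of large subunit assembly, changed by 0.42 ± 0.11 (0.0205), -0.51 ± 0.12 (0.0158) and 0.55 ± 0.12 (0.00703). Its first call ended without 12 h replicate 1 or 4 (up to 0.0765), its second on leaving out replicate 1 of 12 h or of 24 h (as high as 0.0588), and that at rupture held without any single array.

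DHX33, which acts in ribosomal RNA transcription and in translation, was the member with the widest gap at rupture, and a dim one. It read 4.08, 3.43, 4.38 and 3.18 before and 5.38, 4.91, 5.32 and 4.89 after rupture, without overlap. The difference was 1.36 ± 0.34 (adjusted p = 0.0152), and without unruptured replicate 4 it was not called (0.0571). All of its unruptured values lay below the overall median log2 of 4.73. DDX24 was lower after rupture by 0.44 ± 0.14, a difference of -0.44 (0.0482) that was lost on leaving out any 1 of 17 arrays (up to 0.135).

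DDX19A had the highest F of all members (adjusted p = 4.46e-06) and tight groups. It is a near copy of the mRNA export helicase DDX19B, and probe sets of the pair may not tell them apart. At 0 h it ran from 6.80 to 7.02 (median 6.84). It read 7.86, 7.71, 7.57 and 7.65 at 12 h, 6.75, 6.72, 6.77 and 6.89 at 24 h, 6.88, 6.87, 6.85 and 6.78 before and 7.67, 7.36, 7.73 and 7.79 after rupture. The 12 h and ruptured values lay above all others, and the other 3 groups overlapped one another. The changes were 0.82 ± 0.10 (adjusted p = 5.15e-05), -0.92 ± 0.11 (0.000119) and 0.79 ± 0.11 (0.000167), and its second probe set was called in the same 3 steps and directions.

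DHX9, RNA helicase A, which unwinds double-stranded RNA, was lowest before rupture. It read 9.77, 9.71, 9.54 and 9.56 at 12 h, 9.15, 8.93, 9.26 and 9.27 at 24 h and 8.88, 8.75, 8.74 and 8.95 in unruptured follicles, which all lay below the 0 h range of 9.20 to 9.49. It fell by 0.49 ± 0.11 to 24 h (adjusted p = 0.00788), and unruptured follicles stood -0.52 ± 0.10 from 0 h (0.00398). Of its 4 probe sets, 1 was called in the fall to 24 h and 3 were called lower before rupture than at 0 h. DDX3X, a translation helicase, was not called in the F test (adjusted p = 0.221).

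The RNA sensor helicases DDX60 and DHX58 went opposite ways at rupture. Both are interferon-induced: DDX60 aids RIG-I-like receptors, and DHX58 (LGP2) regulates them. DDX60L, the other of 3 measured genes of this list, was not called in any comparison. DDX60 read 9.02, 9.65, 9.15 and 9.49 at 12 h, 8.64, 8.80, 8.82 and 8.61 before and 9.51, 9.42, 9.20 and 9.68 after rupture, and its 12 h and ruptured values lay above the 0 h range of 8.16 to 8.74. DHX58 read 7.24, 7.38, 7.97 and 7.32 at 12 h, 8.47, 8.70, 8.35 and 7.92 before and 7.29, 7.46, 7.49 and 7.63 after rupture. For each gene the ruptured and unruptured follicles did not overlap.

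DDX60 rose by 0.78 ± 0.15 to 12 h (adjusted p = 0.0027) and was 0.73 ± 0.17 higher after rupture (0.00799), while DHX58 differed at rupture by -0.89 ± 0.17 (0.00269). A far dimmer second probe set of DDX60 was not called at rupture, with -0.93 ± 0.36. Other interferon genes did not move as one: of 10 measured, OAS1 was higher and IFIT3 and MX1 lower after rupture, by 0.97 ± 0.28 (0.0334), -1.02 ± 0.22 (0.00648) and -1.17 ± 0.28 (0.0122). The summed interferon genes ran from 1999 to 2950 before and from 1457 to 2526 after rupture, and their part in these results was not tested.

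DHX40, a DEAH-box helicase, took the reverse course of DDX19A. It ran from 8.93 to 9.22 at 0 h (median 9.06) and read 8.24, 8.19, 8.44 and 8.21 at 12 h. It read 9.18, 9.30, 9.40 and 8.82 at 24 h, 9.26, 9.73, 9.50 and 9.50 before and 8.81, 8.95, 9.16 and 8.75 after rupture. The 12 h follicles lay below all others. The changes were -0.78 ± 0.13 (adjusted p = 0.00066), 0.90 ± 0.14 (0.000739) and -0.58 ± 0.14 (0.0115), and its second probe set, of nearly the same brightness, was called in the same 3 steps and directions.

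Of 10 measured helicases of the spliceosome itself, DHX8 and DHX15 were called in the F test, where 29.0% of all genes were. Between successive groups, 0 were called at 12 h or 24 h, where 14.3% and 10.9% of all genes were. At rupture (14.1% of genes called), DHX8, which releases the spliced messenger RNA, was higher by 0.73 ± 0.17 (adjusted p = 0.0102). Its level was 5.63 ± 0.37 before and 6.36 ± 0.13 after rupture, and the next brightest of its 3 other probe sets gave -0.42 ± 0.18 (0.174), not called. DDX39A was not called in the F test (adjusted p = 0.502). DDX11, a DNA helicase of sister chromatid cohesion, fell by 0.71 ± 0.19 from 12 h to 24 h (0.0284), a call lost on leaving out replicate 3 of 12 h or replicate 1, 3 or 4 of 24 h (as high as 0.0944).

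The comparisons of 12 h with 0 h and of ruptured with unruptured follicles share no array, and most members that rose in the first were higher in the second. Of 12 members that rose to 12 h, 9 were also higher after rupture: DDX19A, DDX56, DDX60, DHX37, LSM1, RBM28, RBM3, SNRPF and SRSF8. That is 75% of the first list and 56.2% of the 16 in the second. Over all genes, the shares were 45.7% and 45.9%. DHX40 and RBM5 were lower in both, 25% and 20% of the lists of 8 and 10, where all genes gave 38.6% and 39.2%. No member called in both had opposite signs. The 12 h call of RBM5 was lost on leaving out any 1 of 7 arrays (adjusted p as high as 0.12), as were calls of SRSF8, SNRPF, LSM1, DDX56 and RBM28 with the arrays given above. Across the 127 members, which are not independent replicates and share arrays within each comparison, Pearson's r of the 2 changes was 0.64, and across all 14132 genes it was 0.42.

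**Figure D4:**
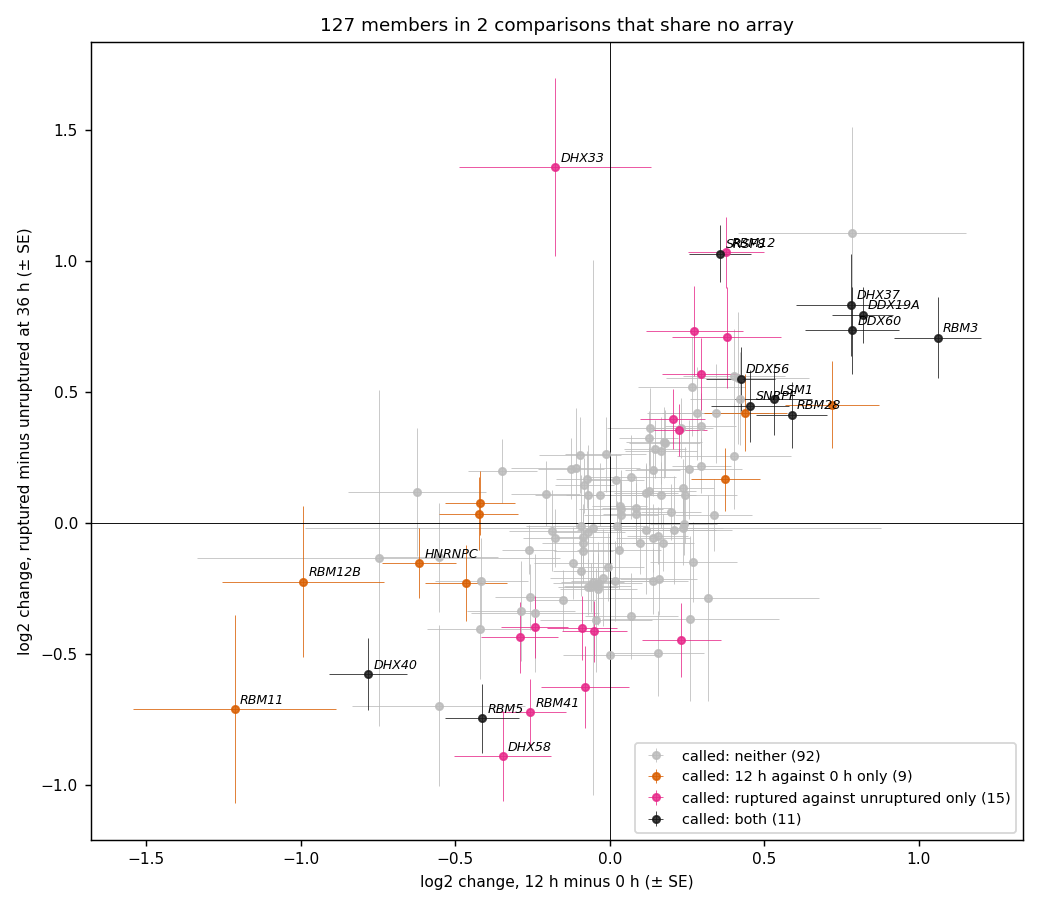
Log2 change of each of the 127 members from 0 h to 12 h (horizontal axis) against its log2 difference between ruptured and unruptured 36 h follicles (vertical axis), with SE bars. The 11 members called in both comparisons (black) lie in the upper right, 9 members, and the lower left, DHX40 and RBM5, while DHX33 stands highest with a change near 0 at 12 h.

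Genes of the splicing machinery outside the member families gave a mixed picture. Of 48 measured splicing genes, 3 rose (AQR, BUD31 and SART1) and CIRBP fell to 12 h. To 24 h, 4 rose and 5 fell, and at rupture 3 were higher (AQR, BUD31 and TXNL4A) and 4 lower (CIRBP, PNN, SRRM2 and SUGP1). Over all genes, 14.3% were called to 12 h, 10.9% to 24 h and 14.1% at rupture. AQR, an intron-binding helicase, changed by 0.44 ± 0.11, -0.49 ± 0.12 and 0.51 ± 0.12 in the 3 steps (adjusted p = 0.0159, 0.0173 and 0.0106).

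Of the 5 measured SR protein kinases and relatives, CLK4 fell to 12 h, by 0.54 ± 0.13 on the log2 scale (adjusted p = 0.0137). CLK1 and CLK4, which phosphorylate SR proteins, were both lower after rupture, with differences of -0.57 ± 0.17 (0.035) and -0.67 ± 0.14 (0.00566). In snRNP assembly, STRAP and GEMIN4 fell to 24 h and were higher after rupture, and GEMIN8 did the reverse, with 9 genes measured. Of 16 export and surveillance genes, 0 were called at 12 h, 4 fell to 24 h (ALYREF, NCBP1, NXT1 and UPF3B), and 3 were higher (NCBP1, NXT1 and SMG1) and UPF3A lower after rupture. The counts of these 3 lists stand beside 14.3% of all genes called to 12 h, 10.9% to 24 h and 14.1% at rupture.

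PRPF38B, a spliceosome protein, showed probe sets that went opposite ways, and it was chosen here after its values were seen. The brightest of its 4 probe sets read 8.38, 8.21, 8.32 and 7.90 at 12 h, 7.74, 7.75, 7.90 and 8.06 before and 8.66, 8.36, 8.58 and 8.11 after rupture. The second brightest read 7.47, 7.32, 7.44 and 7.09, then 8.08, 7.95, 7.97 and 8.13, and then 7.35, 7.56, 7.60 and 7.21. The first was high where the second was low, and ruptured and unruptured follicles did not overlap on either.

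At rupture the brightest probe set of PRPF38B was higher by 0.57 ± 0.14 (adjusted p = 0.0122) and the second lower, with -0.60 ± 0.13 (0.00519). Of the others, the brighter gave 0.42 ± 0.17 and the dimmer -0.42 ± 0.15, neither called. In a limma fit of the difference between the brightest and the second over all such pairs, that difference shifted by 1.05 ± 0.12 to 12 h (3.97e-05), -1.14 ± 0.13 to 24 h (0.000165) and 1.17 ± 0.13 at rupture (0.000162). Where in the gene these probe sets lie was not analysed here.

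**Figure D5:**
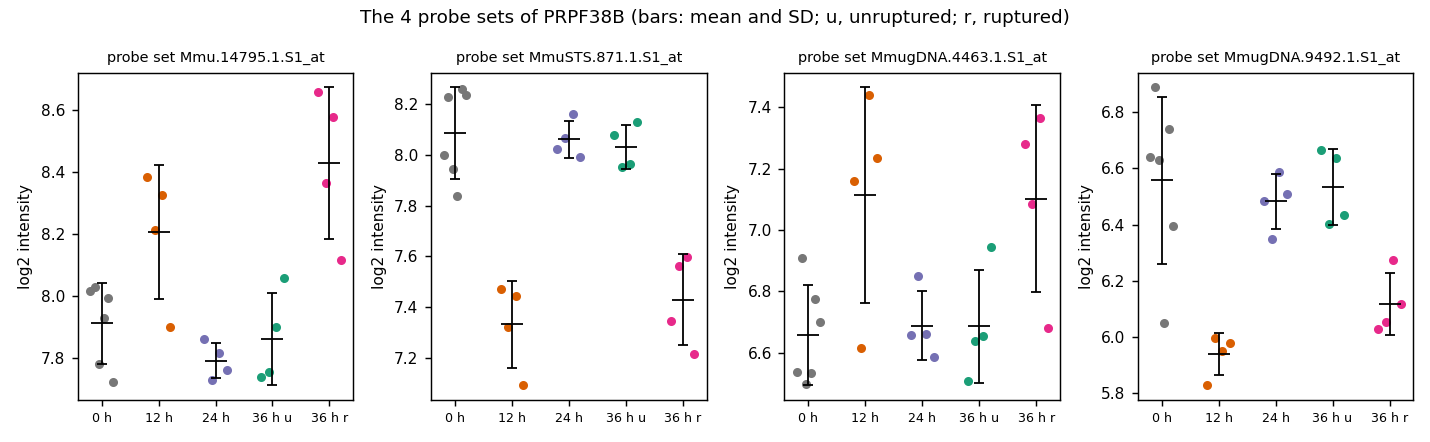
Log2 intensity (vertical axis) of the 4 probe sets of PRPF38B in each follicle of the 5 groups (horizontal axis; u, unruptured; r, ruptured), with bars for mean and SD. Panels run from the brightest to the dimmest probe set: means are high at 12 h and after rupture in panels 1 and 3, and low there in panels 2 and 4.

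Probe sets of other members also differed. Of 142 pairs of a member's brightest probe set with another of the same gene, 17 (12.0%) differed in the F test of the difference, against 9.61% of 10824 pairs of all genes. Where both probe sets had a mean log2 above 7, the shares were 13.2% and 15.2%. The 12 genes with such a pair included HNRNPH3, DDX10, SF3A1, DHX8, HNRNPDL, DDX60 and RBM34, so for these the choice of probe set bears on the values. PRPF38B was the only member with probe sets called in opposite directions between ruptured and unruptured follicles. Between ruptured follicles and 0 h, HNRNPH3 and PRPF38B had such probe sets.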

How the data were processed

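Per the submitters' processing notes, the authors' values were made with RMA, its version not given in the sources used here. The deposited intensity values are linear, and their log2 was used. Of 52865 probe sets, 99 controls were left out and 52766 tested. Group means of all 22 arrays were fitted with limma 3.58.1 in R 4.3.3 (lmFit, eBayes), with two-sided p-values adjusted by Benjamini and Hochberg's method across every probe set tested; the fit was tested on simulated data. Symbols are those of the platform table, and 125 of 127 members matched the RefSeq table by gene ID, with 0 changed names. The members and lists were chosen with earlier results of these data known. Named members are, per successive comparison, up to 6 highest and 6 lowest called changes without overlap, the 10 highest F, and a panel of 32 genes, of which 18 were measured; others were chosen after their values were seen. Same-numbered follicles did not deviate together (26 pairs, r from -0.061 to 0.058). No scan date or batch was given, and no detection calls, so no level is said to be above background. No sequences of these genes were used here.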

Additional observations from a re-analysis of the deposited data

Results flagged for a closer look

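In the 39 named genes, 195 groups of 4 to 6 follicles were examined and 8 held a follicle far from the others, by Dixon's ratio at the 95% level; chance alone flags about 1 in 20 groups. The 24 h replicate 2 was low for 3 genes: it read 2.52 for DHX33 (others 3.99 to 4.15), 9.81 for HNRNPC (others 10.06 to 10.11) and 6.95 for RBM28 (others 7.13 to 7.17). The 12 h replicate 3 read 10.27 for RBM3 (others 10.62 to 10.69) and 11.08 for SRSF6 (others 10.86 to 10.89). That array also had the highest 3' minus 5' difference of the control transcripts, 0.482, where the other 12 h arrays gave 0.288 to 0.323. With that difference as a covariate, RBM3 and SRSF6 were still called at 12 h against 0 h (limma adjusted p = 0.000284 and 0.0257). Unruptured replicate 3 read 10.69 for HNRNPDL (others 11.07 to 11.09). Among ruptured follicles, replicate 5 read 7.27 for RBM41 (others 7.05 to 7.09) and replicate 8 read 10.40 for SRSF6 (others 10.91 to 10.98).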

How the results depend on the processing

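Leaving out 1 array at a time gave 52 to 60 members in the F test, 11 to 20 at 12 h against 0 h, 15 to 28 at 24 h against 12 h, 16 to 27 at rupture, and 0 to 0 for unruptured 36 h against 24 h. Against 0 h it gave 0 to 5 at 24 h, 8 to 19 in unruptured and 29 to 42 in ruptured follicles. Fitting only the groups compared gave 8 members at 12 h, 1 at 24 h against 12 h, 5 at rupture, and against 0 h 1 at 24 h, 7 unruptured and 20 ruptured. Replicate numbers did not pair the follicles (3 of 22 arrays correlated best with their own number), and the unruptured and ruptured groups share none. With the replicate number as a block, the counts were 17 in the F test, 8 at 12 h, 13 at 24 h against 12 h, 0 at rupture, and against 0 h 0 at 24 h, 2 unruptured and 2 ruptured. Adjusting only over brighter probe sets (filter on low values) gave 42 at 24 h against 12 h, and against 0 h 18 at 24 h and 32 unruptured. A trended, robust variance gave 13 at 24 h and 28 unruptured against 0 h. With the 3' minus 5' difference as a covariate, 18 were called at 12 h, 18 at 24 h against 12 h, 20 at rupture and 37 in ruptured follicles against 0 h, where 7 of 43 calls ended. For 24 h against 0 h, any probe set of the gene gave 8, array weights 7 and 16 added to the intensity 6. The cause of these moves was not tested. Of the values for single genes under all alternatives, 6735 kept their direction and call, 742 lost the call and 30 gained it. Another 51, called in neither fit, changed sign, and none that was called changed sign. The fit of probe set differences was chosen after seeing the data.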

Other observations

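Of the 17 members called before rupture against 0 h by their brightest probe sets, RBM3 alone was higher, on 1 of its 2 probe sets. The lower ones came from several families: SRSF6, SRSF10 and SRSF12, HNRNPA0, HNRNPC, HNRNPD and HNRNPL, SNRPB, SNRPD3 and SNRPF, and others. Dimmer probe sets of DHX40 (1 of 2), HNRNPH3 (1 of 5) and HNRNPLL (2 of 4) were also called higher there. SNRPD3 was tight, at 9.03 ± 0.08 at 0 h (n = 6) and 8.55 ± 0.03 before rupture (n = 4). After rupture DHX34, of nonsense-mediated decay, stood -0.87 ± 0.18 from 0 h (limma adjusted p = 0.00182), with groups that overlapped. These genes were chosen after their values were seen, and these comparisons share the 0 h arrays with those above.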
